A study of Homo sapiens with 4 samples.

Results

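The chemokine receptor cluster on the short arm of chromosome 3 was examined in the IRF3 ChIP-seq peak lists of MM1.S, an established human multiple myeloma cell line that models malignant plasma cells. Members were all peaks of both lists whose summit lay between 46.1 and 46.5 Mb of chromosome 3 (GRCh38), a stretch of 400 kb that holds CCR1, CCR3, CCR2 and CCRL2. The window was proposed with peak values of these libraries known, so the number and strength of its peaks are descriptions and carry no test. It held 34 of the 41880 peaks of replicate 1 and 39 of the 41666 peaks of replicate 2. Peaks of the lists that overlapped by at least 1 bp were joined into regions, which gave 40 regions in the cluster of 49089 in all.

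IRF3 was immunoprecipitated from formaldehyde-fixed MM1.S cells in 2 libraries, and 2 libraries of input chromatin were made beside them, all from cells grown in RPMI medium with serum and given no treatment. Each list was called by the authors against the input of the same number, and the input entered only through those calls. The labels do not state whether replicates 1 and 2 were separate cultures, and their spread may therefore be technical. Calling used 38568845 ChIP and 58025919 input tags in replicate 1, and 46474586 ChIP and 60348415 input tags in replicate 2. Of the plasma cell and myeloma genes checked (IRF4, XBP1, PRDM1, SDC1, TNFRSF17, CCND2 and MAF), 7 of 7 had a region with a peak of both replicates within 1 kb of an end, as had 50.7% of all protein-coding genes. Neither of the B cell genes MS4A1 and PAX5 had one, while the count was 1 of 2 for the T cell genes CD3E and CD4 and 0 of 2 for the myeloid genes CD14 and CSF1R. Peaks report binding and not expression, so these counts do not show which genes the cells transcribe.

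Chemokine receptors are G protein-coupled receptors that steer cells along gradients of secreted chemokines. CCR1, which binds CCL3 and CCL5, CCR2, the receptor of CCL2 on monocytes, and CCR3, the eotaxin receptor of eosinophils, arose by duplication and lie side by side. CCRL2 is an atypical receptor that binds chemerin and does not signal like the others. IRF3 is a transcription factor that nucleic-acid sensors activate by phosphorylation, after which it binds interferon and chemokine genes through elements with GAAA repeats. CCL3 is secreted by myeloma cells and is known for its part in bone loss, and CCR1 is among its receptors.

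The sequences before the start sites of CCR1, CCR2 and CCRL2 are shown because IRF3 regions lay at the first pair and not at the third. Each is the 250 bases before the annotated start, 5′ to 3′ on the gene's strand, from RefSeq (GRCh38.p14). Capitals mark matches to 4 motifs searched on both strands, which were the core of the interferon response element (GAAA, any 2 bases, GAAA), the composite of ETS and IRF factors (GGAA, any 2 bases, GAAA), AP-1 (TGANTCA) and the ETS core (GGAA). The ETS core lies within the composite, so these matches may overlap. CCR1 is on the minus strand at chr3:46208314-46208563, CCR2 on the plus strand at chr3:46353861-46354110, and CCRL2 on the plus strand at chr3:46407009-46407258.
CCR1: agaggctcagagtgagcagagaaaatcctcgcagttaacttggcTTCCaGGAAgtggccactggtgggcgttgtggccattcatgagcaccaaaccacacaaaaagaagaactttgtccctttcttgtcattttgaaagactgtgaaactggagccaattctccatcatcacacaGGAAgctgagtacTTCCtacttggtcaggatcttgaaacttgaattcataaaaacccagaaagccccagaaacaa
CCR2: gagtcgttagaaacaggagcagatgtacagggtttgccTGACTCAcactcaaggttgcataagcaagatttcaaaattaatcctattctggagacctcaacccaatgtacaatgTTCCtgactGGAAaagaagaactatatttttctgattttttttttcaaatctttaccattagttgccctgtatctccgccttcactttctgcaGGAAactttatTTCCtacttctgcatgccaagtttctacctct
CCRL2: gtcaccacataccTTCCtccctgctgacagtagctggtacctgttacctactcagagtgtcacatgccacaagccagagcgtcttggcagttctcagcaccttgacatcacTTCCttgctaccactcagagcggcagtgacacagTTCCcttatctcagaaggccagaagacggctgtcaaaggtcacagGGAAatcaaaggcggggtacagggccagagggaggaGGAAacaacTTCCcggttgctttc

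None of these 3 windows held the interferon response core or the composite, and neither did the other window given for CCRL2 or both windows given for CCR3. Among all 35116 windows of 250 bases in the table, 3.02% held the interferon response core and 2.41% held the composite. The CCR2 window held TGANTCA once, from base 212 to base 206 before the start, while 6.57% of all windows held it. GGAA occurred 4 times before CCR1, 4 times before CCR2 and 6 times before CCRL2, and 92.7% of all windows held it. These matches describe letters and do not locate a binding site.

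IRF3 peaks in the cluster were mostly found in both replicates. A peak of each replicate lay in 33 of the 40 regions (82.5%), compared with 65.7% of all regions. By list, 97.1% of the cluster peaks of replicate 1 lay in shared regions, against 80.5% of its whole list. For replicate 2 the shares were closer, 84.6% against 79.2%. A single region was of replicate 1 alone, with a fold enrichment of 2.1, and 6 were of replicate 2 alone, with 2.91 to 4.01. Fold enrichment is the authors' own value of each peak, the ChIP pileup over the local input background at its summit. The summits of the 2 replicates lay a median of 53 bp apart in the 33 shared regions, against 48 bp over all 32246 shared regions, and 26 of the 33 pairs were within 100 bp.

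Peaks were dense in the cluster. The 33 shared regions made 8.25 per 100 kb, compared with 1.12 per 100 kb on chromosome 3 and 1.19 over the effective genome. In fixed windows of 400 kb along all chromosomes, the median was 3 shared regions and the upper quartile 6. Of 7705 such windows, 2 held at least 33, one of them overlapping the cluster itself and the other on chromosome 12 with 33 (53200001 to 53600000). Since the window was drawn around the cluster and the others were placed by position alone, the ranks are not a test. Peaks covered 6.83% of the cluster in replicate 1 and 7.54% in replicate 2, against 1.01% and 1.14% of the effective genome.

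**Figure D1:**
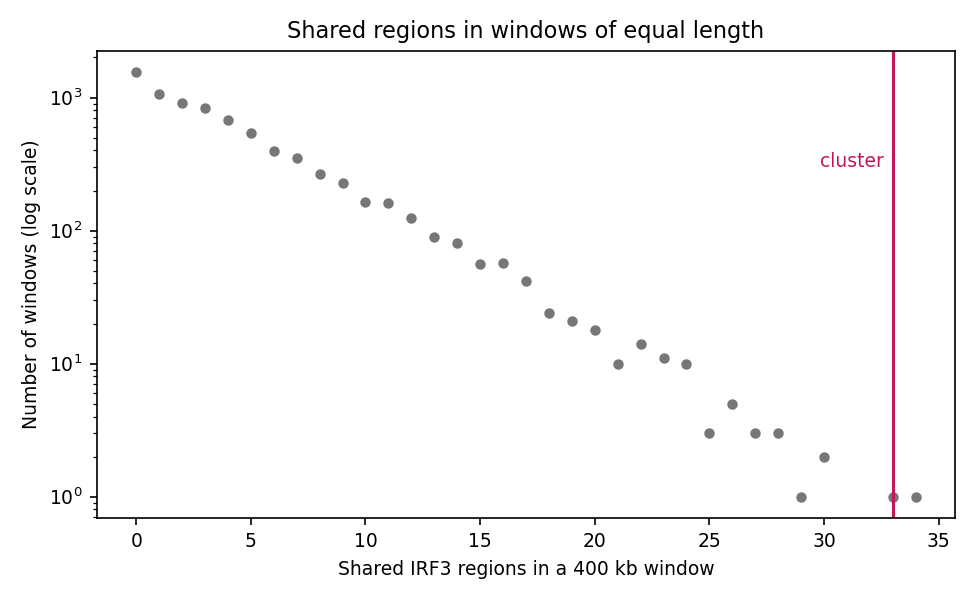
Number of fixed windows of 400 kb (log scale) by the number of shared IRF3 regions they hold. The line marks the 33 shared regions of the cluster, and 2 of 7705 windows reached that count, of which 1 overlaps the cluster.

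Peak heights in the cluster were mostly below the list medians. By fold enrichment, 11 of the 34 cluster peaks of replicate 1 were above the median of the list, and 14 of the 39 of replicate 2. The median fold enrichment of cluster peaks was 3.72 in replicate 1 (quartiles 3.25 and 5.70, highest 15.8), where the whole list had 3.90. In replicate 2 it was 3.75 (quartiles 3.22 and 5.55, highest 13.0), where the whole list had 4.30. Over shared regions alone the medians were 3.75 in the cluster and 4.28 over all in replicate 1, and 3.91 and 4.94 in replicate 2. A fold enrichment of at least 5 in both replicates was reached by 10 of the 33 shared regions (30.3%), and by 30.0% of all shared regions. Median peak length was 614 bp and 605 bp in the cluster, against 528 bp and 574 bp in the whole lists of replicates 1 and 2.

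The regions lay unevenly along the cluster. In steps of 100 kb from the CCR1 start site toward CCR2, there were 11 and then 13 shared regions, followed by 4, 3 and 0. On the other side of CCR1 the first steps held 4 and 6, the second of them mostly outside the window. Farther from CCR1 on that side, the steps from -700 to -600 and from -600 to -500 kb held 8 and 9. Inside the window the largest gap, 77 kb without a shared region, ran from 46109724 to 46186710, and the median gap was 4.32 kb. Between the CCR3 and CCR2 spans there were 11 shared regions in 87.4 kb, and between CCR2 and CCRL2 there were 9 in 46.3 kb, which gives 12.6 and 19.4 per 100 kb.

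**Figure D2:**
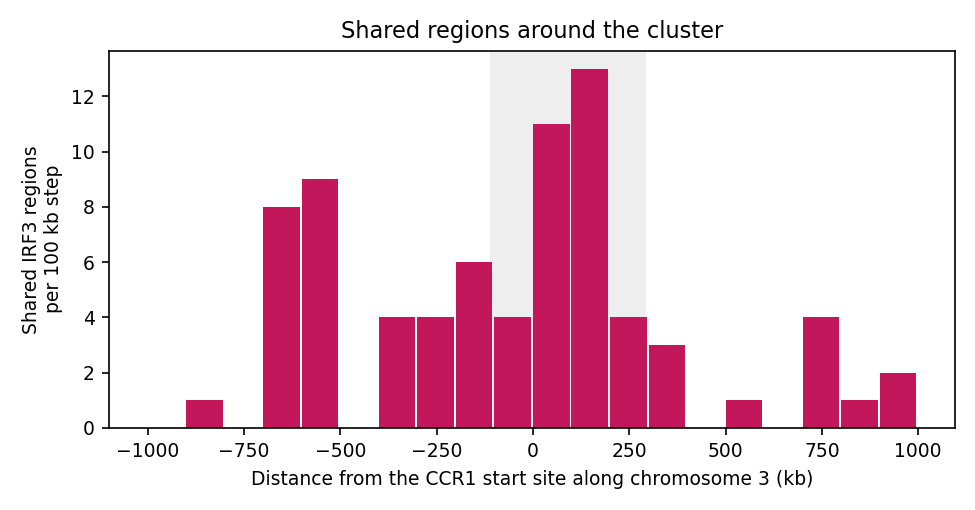
Shared IRF3 regions in each 100 kb step along chromosome 3, by distance from the CCR1 start site in kb; grey marks the cluster window. The steps of 11 and 13 regions lie between CCR1 and CCRL2.

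CCR1 had the strongest and longest region of the cluster. Its region (46204824 to 46209068) covered 52.9% of the gene span, 3490 of 6603 bp, and ran 755 bp past the start site. The peak of replicate 1 was 4134 bp long, with a fold enrichment of 15.8, a pileup of 337 fragments and a −log10 q of 271. The peak of replicate 2 was 3905 bp long, with a fold enrichment of 13.0, a pileup of 172 and a −log10 q of 126. By fold enrichment these stood at percentiles 99.2 and 94.5 of their lists, and by length at rank 57 of 41880 and rank 134 of 41666. Length thus set the CCR1 peaks further apart from their lists than fold enrichment did.

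The position of the CCR1 summit differed between the replicates. The summit of replicate 1 (46206701) lay 1612 bp inside the gene, and that of replicate 2 (46208226) lay 87 bp inside it, near the start site. They were 1525 bp apart, the largest distance in the cluster. Taking the summit of the stronger peak alone, which is that of replicate 1, CCR1 no longer had a shared region within 1 kb of an end. The gene table gives no exons, so whether the inner summit lies in an intron or an exon was not analysed here.

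CCR3 had regions inside its span and none at its ends. Its 56.0 kb span begins at 46210696. The promoter windows gave it start sites at 46242381 and 46242460, 31.7 kb inside that lower end, and any other start site was not analysed here. Nearest to the given sites was a weak region (46244521 to 46244854) with 2.57 in replicate 1 and 2.38 in replicate 2. Its summits lay 2189 and 2293 bp from a given start site. The strongest region of the span (46212667 to 46214059) had 6.25 and 5.82 and lay 2.6 kb inside its lower end. That place is also 4978 bp before the CCR1 start site, which is nearer than the start sites given for CCR3. The lower end of the CCR3 span, its upstream end on the plus strand, is nearer still. The other shared regions of the span were at 46214510 to 46215164, with 3.26 and 2.85, and at 46252892 to 46253431, with 3.01 and 3.90. A peak of replicate 2 alone (46216949 to 46217250) had 2.91.

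CCR2 had a region at its start site and a broader one before it. At the start site (46353605 to 46354382) fold enrichment was 3.11 in replicate 1 and 5.37 in replicate 2, with summits 210 and 91 bp before the start. These are percentiles 27.6 and 64.8 of the lists, so the region was weak in replicate 1 and above the median in replicate 2. About 4 kb before the start (4056 bp, 46348780 to 46351256), peaks of 2010 and 2416 bp had 6.02 and 6.35, with summits 3 bp apart. The region at the start ran 272 bp into the CCR2 span, and no summit of a shared region lay inside the span.

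CCRL2 had no peak at either end in either replicate. The nearest shared region (46415735 to 46417375) lay 6.69 kb past its end, with 8.66 in replicate 1 and 3.90 in replicate 2. It was thus the second strongest of the cluster in replicate 1 and below the list median in replicate 2. On the other side, the nearest region (46396102 to 46396731, 10.9 kb before the start) had 2.45 and 5.25. Both neighbours of CCRL2 therefore differed more than 2 times between the replicates, in opposite directions.

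Of the 10 with a fold enrichment of at least 5 in both replicates, 3 lay inside a coding gene span (CCR1, CCR3 and LTF, which encodes lactoferrin) and 7 outside, by the summit of the stronger peak. Over the genome, 32.3% of all 9677 such strong regions lay outside coding gene spans. A summit lay within 1 kb of a coding gene end in 1 of the 10, where 51.0% of all such strong regions had one. Over all 33 shared regions the count was 3 (9.09%), against a background of 28.8%. A distance over 10 kb was found for 5 of the 10 strong regions, against 36.6% of all strong regions, and for 20 of the 33 (60.6%), against 53.6%. The members were chosen by place, so these shares describe the stretch and were not tested.

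The interval between CCR3 and CCR2 held 4 of the strong regions. Of these, the region at 46293120 to 46295073 had the highest values, 7.87 and 7.40, with peaks of 1391 and 1954 bp. Nearby, the region at 46289165 to 46290534 had 6.54 and 5.88, and that at 46321264 to 46322059 had 7.72 and 5.76. The last of the 4 is the region 4 kb before CCR2 named above. In each of these the summits of the replicates lay close, at most 102 bp apart. The other 6 shared regions of the interval, apart from the one at the CCR2 start site, had 2.76 to 3.85 in replicate 1 and 2.38 to 4.24 in replicate 2. In order along the chromosome, 46278986 to 46279659 had 3.70 and 3.91, 46284725 to 46285456 had 3.80 and 2.98, and 46297981 to 46298539 had 3.43 and 2.38. Then 46299864 to 46300536 had 2.76 and 3.47, 46304574 to 46305335 had 3.85 and 4.24, and 46314404 to 46315131 had 3.43 and 2.50. All 6 were below the median of the list in both replicates. Single-replicate peaks lay at 46276501 to 46276903 in replicate 1 (2.1), and at 46277573 to 46277861 (3.47) and 46281804 to 46282060 (3.37) in replicate 2.

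Between CCR2 and CCRL2 the strong regions were a neighbouring pair. The region at 46383354 to 46384600 had 5.70 in replicate 1 and 7.26 in replicate 2, and that at 46385976 to 46386760 had 5.70 and 5.16. They lay 23.3 and 20.9 kb before CCRL2. Weaker regions flanked them, at 46378546 to 46378912 with 2.61 and 3.75, and at 46380666 to 46381304 with 3.41 and 3.19. Toward CCRL2 followed 46391359 to 46392009 with 3.75 and 3.65, and 46393707 to 46394110 with 3.65 and 3.08. Apart from the region nearest to CCRL2, given above, the remaining 2 shared regions of this interval had 3.70 to 3.83 in replicate 1 and 3.22 to 4.31 in replicate 2, so none of them reached 5.

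At the outer parts of the window the regions were fewer. Before CCR1, the region at 46107419 to 46108191 had 6.36 and 5.78, and its neighbour at 46109295 to 46109724 had 3.24 and 3.22. Inside the non-coding RNA gene LOC105377067, 46186710 to 46187346 had 3.67 and 3.37, and 46187743 to 46188341 had 3.75 and 2.36. A peak of replicate 2 alone at 46191898 to 46192318 had 3.25. LTF held 2 regions in its span, with 5.50 and 5.73 at 46440547 to 46441694, and with 3.19 and 3.60 at 46454063 to 46454589. The region before the LTF start (46488580 to 46489350, summits 3783 and 3795 bp from it) had 3.79 in replicate 1 and 10.5 in replicate 2. That ratio of 2.78 was the widest in the cluster, although the summits were 12 bp apart. Near RTP3, replicate 2 alone had peaks at 46492781 to 46493191 (4.01) and 46496844 to 46497106 (3.55).

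**Figure D3:**
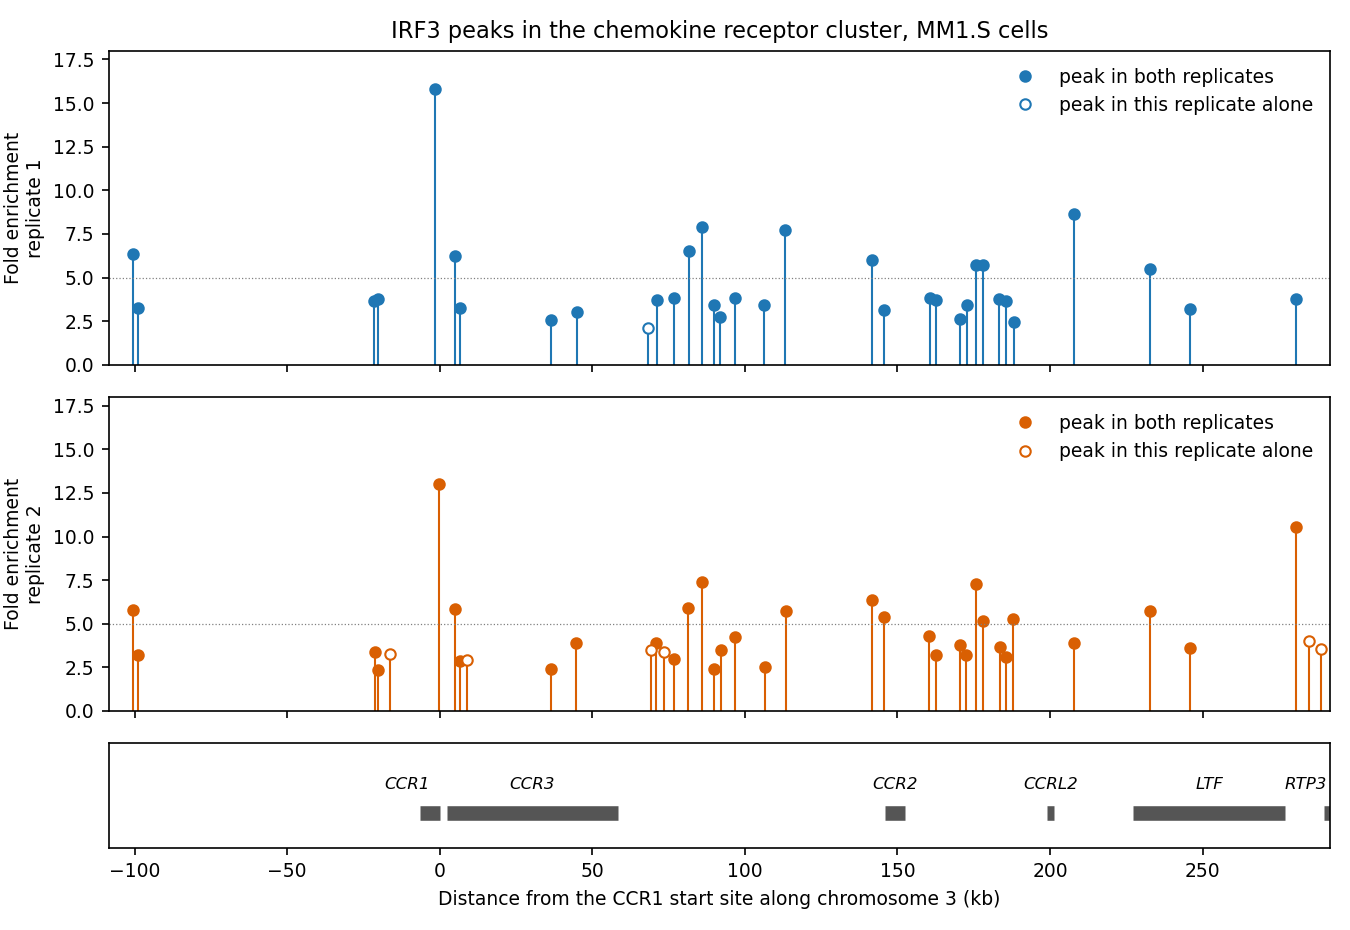
Fold enrichment of each IRF3 peak in the cluster, by distance of its summit from the CCR1 start site along chromosome 3 in kb, with replicate 1 in the upper and replicate 2 in the middle panel, and the coding genes named in the text below. Filled points belong to shared regions, open points to 1 replicate, and the dotted line marks a fold enrichment of 5; CCR1 stands highest in both, at 15.8 and 13.0.

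Shared regions continued below the lower limit of the window, and none followed closely above the upper limit. Just inside the lower limit lay the region with 6.36 and 5.78, and just outside it, 1.61 kb away, a shared region with 4.53 and 4.53 and, 7.10 kb away, another with 7.58 and 10.3. At the upper limit the last peak inside was that of replicate 2 with 3.55, and the nearest outside, 4.85 kb away and also in replicate 2 alone, had 4.20. The nearest shared region beyond that limit, 39.2 kb away, had 8.56 and 9.48.

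The values of the replicates lay closer together in the cluster than over the genome, and more often with replicate 1 higher. Fold enrichments were within 1.5 times of each other in 28 of the 33 shared regions (84.8%), against 66.3% of all shared regions. Values were over 2 times apart in 3, which were those on both sides of CCRL2 and that before LTF. Replicate 2 had the higher value in 13 of 33 (39.4%), where it had the higher value in 68.2% of all shared regions. The median log2 ratio of replicate 2 over replicate 1 was -0.10 in the cluster and 0.26 over all. With 1 library on each side, this difference cannot be tested.

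**Figure D4:**
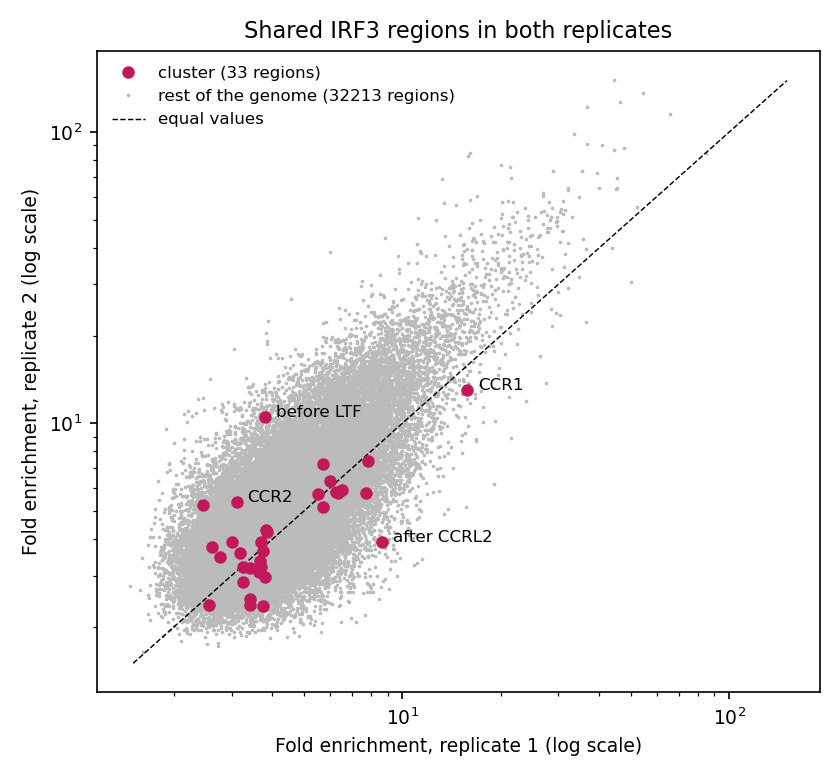
Fold enrichment in replicate 1 against replicate 2 (log axes) for the 33 shared regions of the cluster and the other shared regions; the dashed line marks equal values. Cluster points lie on both sides of the line, with CCR1 the highest in replicate 1 and the region before LTF farthest above the line.

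Among the 4 receptor genes of the cluster, 2 had a summit of a shared region within 1 kb of an end, CCR1 and CCR2. Over 20037 protein-coding genes the share was 50.7%, so the count is near the background. Counting a summit of either replicate was settled after the CCR1 peaks were seen, and with the summit of the strongest peak alone the count was 1 (CCR2). Within 5 kb of an end there were 3 of 4, with CCR3 added, and the background was 59.0%. The summit nearest to an end of CCR3 is that of the CCR1 region in replicate 2, at 2.47 kb. With summits inside the span counted as well there were also 3 of 4, and the background was 62.2%. Of 18 chemokine receptor genes outside the window, 5 had one within 1 kb (27.8%). At CCR10 fold enrichment was 7.75 in replicate 1 and 17.1 in replicate 2, and at CXCR3, a receptor of interferon-induced chemokines, it was 7.42 and 11.0. CXCR4, which holds plasma cells in the marrow, had 5.46 and 11.7. CX3CR1, the fractalkine receptor, had 8.08 and 5.01 at the end away from its start site, which lay 5200 bp from the nearest shared summit. The scavenging receptor gene ACKR3 had 5.46 and 4.89. CCR1 thus had the highest value of these 7 genes in replicate 1, while CCR10 was above it in replicate 2. CCR4, CCR6, CCR7, CCR8, CCR9, CXCR1, CXCR2, CXCR5, CXCR6, XCR1, ACKR1, ACKR2 and ACKR4 had none at an end. Of the 13, CXCR5 and XCR1 had a shared region 646 and 99 bp from a start site inside the span, while start sites of CCR7, CCR8, ACKR1, ACKR2 and ACKR4 were not analysed here. Nor were those of CCR10 and ACKR3, so whether their regions lie at the start or the far end of the gene is not stated.

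None of the other receptor loci matched the cluster in number of regions. Windows of 400 kb centred on the 16 receptor genes whose window did not reach the cluster held 3 to 21 shared regions, with a median of 10.5. CCR10 and CXCR5 had 21 each, and CXCR4 had 9. Neighbouring receptor genes share windows, so these are not independent.

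Of the 13 listed ligand genes, 3 had a shared region at an end (23.1%, background 50.7%). These were CCL3, with 15.8 in replicate 1 and 82.5 in replicate 2, CCL4, with 4.90 and 10.8, and CCL5, with 6.19 and 16.5. The first and the last encode ligands of CCR1, which also has ligands among the listed genes without a region at an end. In all 3 the value was higher in replicate 2, while at CCR1 it was higher in replicate 1. CCL2, CCL7, CCL8 and CCL13, ligands of CCR2, had none, and neither had the eotaxin genes CCL11, CCL24 and CCL26, CCL15, CCL23, or RARRES2, which encodes chemerin.

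**Figure D5:**
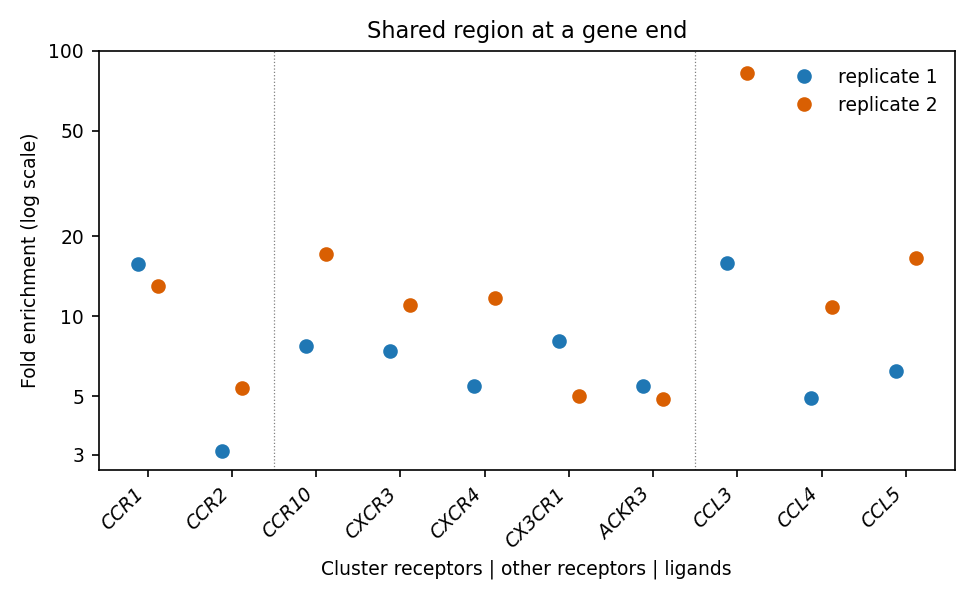
Fold enrichment (log scale) in replicates 1 and 2 at each receptor or ligand gene with a shared IRF3 region within 1 kb of an end, in the order cluster receptors, other receptors and ligands. CCR1 is higher in replicate 1 (15.8) than in replicate 2 (13.0), and CCL3 has the highest value, 82.5 in replicate 2.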

How the data were processed

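MM1.S IRF3 ChIP-seq peak lists, 1 for each of 2 ChIP libraries, were used. Peak calling by the authors used MACS2 without broad regions, 1 ChIP library at a time against its input, at a q-value cutoff of 0.05 and without dropping duplicate tags, per the file headers, with tags of 74 bp and modelled fragments of 267 bp and 251 bp. The file headers name MACS2 2.1.2 and the submitters' processing notes 2.1.1, beside the build GRCh38 and the tools deepTools 3.3.1, SAMtools 1.2, Picard 2.6.0 and BWA 0.7.15. The deposited fold enrichment is a ratio of ChIP pileup to local input background, and the deposited pileup is a signal at the summit, scaled by the caller toward the smaller library, per the file headers. The deposited −log10 p and −log10 q columns, whose names were damaged, were told apart by order and values. Fold enrichment depends on antibody recovery and input depth.

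Regions were built in pandas 2.3.3 and numpy 2.4.6 (Python 3.11.15), and the merging was tested on simulated data. A region was at a gene end when a summit of any of its peaks lay within 1 kb of either end of the gene span. That any summit counts, and not the strongest alone, was decided after the CCR1 peaks were seen. Genes and promoter windows came from RefSeq tables of GRCh38.p14; all receptor and ligand genes matched by symbol. No genome sequence was used here, so motifs were searched in promoter windows and not under peaks. Members and lists were chosen with earlier results of these data known, by the rule that named the window's genes, 18 other receptor genes and 13 ligand genes. A few items, in the window and in the lists, are not reported singly here. Alternatives were stricter peak thresholds, a larger overlap, other distances and leaving out each replicate.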

Additional observations from a re-analysis of the deposited data

How the results depend on the processing

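The 33 shared regions (8.25 per 100 kb) became 10 (2.50 per 100 kb) when both peaks had to reach a fold enrichment of 5, and 30 and 32 with a −log10 q of at least 5 and with a reciprocal overlap of at least 50%. A single list gave 34 (without replicate 2) to 39 (without replicate 1), or 8.50 to 9.75 per 100 kb. Of the 4 cluster receptor genes, 2 had a region at an end, but 1 at a fold enrichment of 5 (CCR1) and 1 with the summit of the strongest peak alone (CCR2), an alternative chosen after seeing the data. Leaving out a replicate gave 1 (without replicate 2) to 2 (without replicate 1). For the 18 other receptor genes the count of 5 became 9 when summits inside the span counted, and 5 to 6 on leaving out a replicate. Median fold enrichment, 3.72 and 3.75, became 3.75 and 3.91 with a −log10 q of at least 5, and 3.75 and 3.91 over peaks of shared regions. Those moves exceed the SD of 0.0221 between the replicate medians, which is small because the medians nearly coincide. No paired analysis was possible because the results come from no test and the inputs have no values of their own here. With 2 libraries of 1 cell line, differences between replicates of up to 2.78 times at a region limit how far single heights can be read.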
